A study of Homo sapiens with 4 samples.

Results

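The miR-10, miR-99/100 and miR-125 families were examined in the small RNA of extracellular vesicles (EVs) from PC3 cells. The members are the 5p arms (the strand cut from the 5′ side of the hairpin) listed as hsa-miR-10a-5p, hsa-miR-10b-5p, hsa-miR-99a-5p, hsa-miR-99b-5p, hsa-miR-100-5p, hsa-miR-125a-5p and hsa-miR-125b-5p, where hsa- stands for human and is left out below, chosen by family name, with earlier results of these data known. They are 7 of the 2588 mature miRNA names in the count table. PC3 is an androgen-independent prostate cancer (PCa) line from a bone metastasis, and the EVs came from untreated cells by column purification. Small RNA was sequenced as 2 biological replicates, and total RNA of PC3 EVs as another 2, although the titles of both total RNA samples carry the code EX1, and only the description of replicate 2 points to EX2. Each assay has 1 condition, with no parent cell RNA and no EVs of another line, so levels in EVs could not be set against levels in cells. Nothing said which of the identically headed columns of the miRNA table is which replicate, and they are called the first and second library. Values given as a pair are for these libraries in that order.

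miRNAs are short RNAs that guide Argonaute proteins to messenger RNAs, mainly by pairing through the seed, bases 2 to 8 from the 5′ end. These families are old and lie at related places in the genome. The miR-10 genes sit inside HOX clusters, which pattern the body axis. The miR-99/100 and miR-125 genes lie beside let-7 genes in clusters that arose by duplication, and are made from common primary transcripts. miR-125 is the vertebrate form of lin-4, which times larval development in the worm, and miR-99/100 is known to repress mTOR, a kinase that controls growth.

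Of the 7 members, 6 matched a mature entry of RefSeq on GRCh38.p14. They are shown 5′ to 3′ with the seed in capitals, because the seed sets the family and the remaining bases set how well the names can be told apart by their reads.
miR-100-5p: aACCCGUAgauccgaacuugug
miR-99a-5p: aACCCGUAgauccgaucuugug
miR-99b-5p: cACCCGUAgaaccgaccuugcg
miR-10a-5p: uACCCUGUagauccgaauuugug
miR-125b-5p: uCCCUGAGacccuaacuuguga
miR-125a-5p: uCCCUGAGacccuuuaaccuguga

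miR-99a-5p, miR-99b-5p and miR-100-5p shared the seed ACCCGUA. miR-99a-5p differed from miR-100-5p by U16A alone, counted from 1 at the 5′ end with the base of miR-99a-5p first. miR-99b-5p differed from miR-100-5p at 4 positions, by C1A, A11U, C16A and C21U. miR-10a-5p had the seed ACCCUGU and was 3 edits (substituted, added or lost bases) away from miR-100-5p, the shortest distance between families. miR-125a-5p and miR-125b-5p shared the seed CCCUGAG and were 3 edits apart. A RefSeq sequence was matched to 2281 of the 2588 names. Among the RefSeq sequences, a seed of the members occurred in 1 other miRNA, miR-4319, on which no read was counted in either library.

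The mature miR-100-5p lies on chromosome 11 from 122152275 to 122152296, minus strand, in a hairpin within an intron of the long non-coding RNA gene MIR100HG. The mature miR-125b-5p has 2 sources. The first, MIR125B1, lies in an intron of the same gene, at chr11:122099809-122099830 on the minus strand. The second, MIR125B2, lies at chr21:16590253-16590274 on the plus strand, in MIR99AHG, where 3 annotated transcripts have the hairpin within an exon. miR-99a-5p is also in MIR99AHG, at chr21:16539101-16539122 on the plus strand, in an intron. miR-99b-5p (chr19:51692618-51692639) and miR-125a-5p (chr19:51693268-51693291) are both on the plus strand in SPACA6, the former in an intron and the latter overlapping an exon of 1 transcript. miR-10a-5p is at chr17:48579904-48579926 on the minus strand, in an intron of HOXB3, and the MIR10B hairpin is in an intron of HOXD3 on chromosome 2.

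Reads counted on miRNAs totalled 154185 and 113185, so 1 read was 6.49 and 8.84 CPM, the count multiplied by 1000000 and divided by the library's total. A count of 0 allows up to 3 reads, 19.5 CPM and 26.5 CPM. The libraries differed by more than counting noise, with a chi-square of 21.7 per degree of freedom over 208 miRNAs, and were kept as separate samples. Of 11 miRNAs that mark liver, blood, muscle or endothelium, 6 had no read in either library, and the list summed to 337 CPM and 327 CPM. The liver miRNA miR-122-5p was the highest of the list with 39 and 26 reads, and the red cell miRNA miR-451a was at 0. In total RNA, the epithelial keratin KRT8 had 966 and 1088 reads and was the highest of 6 genes listed for the line. The epithelial adhesion genes EPCAM, with 2 and 26 reads, and CDH1, with 4 and 14, were close to the limit of 3 reads in replicate 1. The mesenchymal filament gene VIM had 130 and 87 reads, while KLK3 and FOLH1, which mark androgen-responsive prostate cells, had none. The EV tetraspanin CD81 had 18 and 16 reads, CD63 had 5 and 29, and CD9 had none.

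All 7 members had at least 1 read in both libraries, a rule met by 14.9% of all names in the table. At least 3 reads in both were counted on all 7 as well, against 8.38% of all names. At least 10 reads in both were counted on 6 members, against 5.56% of all names, and miR-10a-5p was the exception with 16 and 8 reads. At least 100 reads in both were counted on 3 members, miR-100-5p, miR-99b-5p and miR-10b-5p, against 1.74% of all names. The members together held 7.21% of the miRNA counts (95% Wilson interval 7.09 to 7.34%) and 5.37% (5.24 to 5.50%), a mean of 6.29% ± 1.31 (SD, n = 2). Intervals here cover counting error only, since amplified reads are not independent molecules. In such bulk RNA, fewer vesicles with a miRNA and fewer copies per vesicle cannot be told apart.

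miR-100-5p carried nearly all of this. It had 9909 and 5405 reads, or 64267 and 47754 CPM, a mean of 56010 CPM ± 11677 (SD, n = 2). It ranked 3 in each library, behind miR-3182 and miR-4448. Of the miRNA counts, miR-3182 held a mean of 29.3% and miR-4448 a mean of 24.5%. Both are in the denominator of the shares of the miRNA counts given here. Among the 7 members it took 89.1% of the reads (88.5 to 89.6%) and 89.0% (88.2 to 89.8%), so its part in the set was level although its CPM was not.

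miR-99b-5p, its relative from chromosome 19, was next, with 485 and 302 reads and a mean of 2907 CPM ± 338 (SD, n = 2). It ranked 24 and 25. miR-125b-5p followed with 234 and 96 reads, or 1518 and 848 CPM, a mean of 1183 CPM ± 473 (SD, n = 2), the widest spread of any member relative to its mean. miR-10b-5p, a miRNA studied for its part in tumour invasion, had 192 and 120 reads, or 1245 and 1060 CPM, a mean of 1153 CPM ± 131 (SD, n = 2). It was below miR-125b-5p in the first library and above it in the second.

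The remaining members were lower. miR-125a-5p had 152 and 77 reads, a mean of 833 CPM ± 216 (SD, n = 2), and miR-99a-5p had 136 and 65, a mean of 728 CPM ± 218 (SD, n = 2). miR-10a-5p was last at 104 and 70.7 CPM, a mean of 87.2 CPM ± 23.4 (SD, n = 2), and ranked 145 and 152. From the highest member to the lowest, the levels thus ran from rank 3 to rank 149 by mean CPM.

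**Figure D1:**
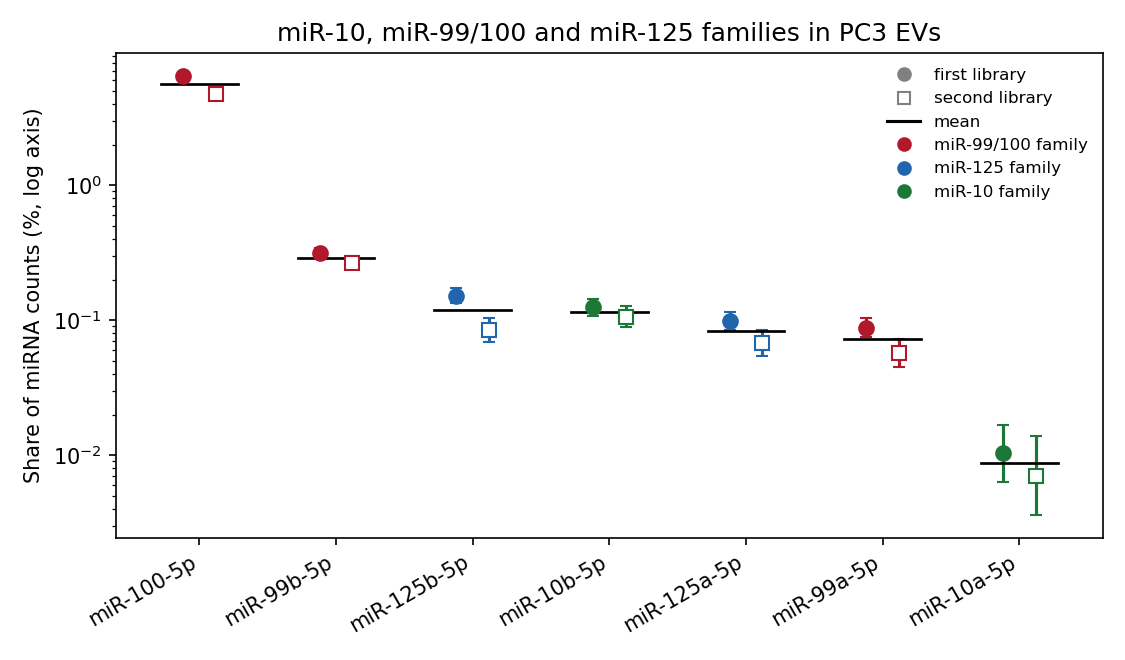
Share of all miRNA counts (percent, log axis) of each member in the first library (filled circles) and second library (open squares), with 95% Wilson intervals and the mean as a line. miR-100-5p lies at 6.43% and 4.78%, and no other member exceeds 0.315%; every member has its first-library point above its second.

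Of the 6 gaps between neighbours in this order, 4 exceeded the larger of the neighbours' SDs and held in both libraries. miR-100-5p was above miR-99b-5p by 20.4-fold (95% interval, derived from the Wilson interval of the share of both, 18.7 to 22.4) and 17.9-fold (15.9 to 20.1). miR-99b-5p was above miR-125b-5p by 2.07-fold (1.77 to 2.42) and 3.15-fold (2.50 to 3.96). miR-99a-5p was above miR-10a-5p by 8.50-fold (5.09 to 14.2) and 8.13-fold (3.96 to 16.7). The fourth gap was that of miR-10b-5p over miR-125a-5p, 1.26-fold (1.02 to 1.56) and 1.56-fold (1.17 to 2.07).

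The order was not resolved for the other gaps. miR-125b-5p and miR-10b-5p differed by 30.2 CPM on average, against an SD of 473 CPM, and changed places between the libraries. miR-125a-5p was above miR-99a-5p in both, by 1.12-fold (0.887 to 1.41) and 1.18-fold (0.853 to 1.65), and both intervals included equal levels. The gap of 105 CPM was below the SD of 218 CPM, although that SD includes a rise in the first library that both names shared. With 2 libraries, no exact permutation test between members could reach p = 0.05, and none was run. By mean CPM over the 2 libraries, the miRNAs closest in level to miR-100-5p were miR-4448 above and miR-7641 below. The neighbours of miR-99b-5p were miR-4419a and miR-4791, those of miR-125a-5p miR-542-3p and miR-30c-5p, and those of miR-99a-5p miR-1268a and miR-26b-5p. miR-125b-5p stood below miR-4497, and miR-10b-5p above miR-17-5p. miR-10a-5p stood between miR-4433a-3p and miR-1285-3p, at the same mean CPM as the latter.

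The families were made up very differently. In the miR-99/100 family, miR-100-5p took 94.1% of the reads (93.6 to 94.5%) and 93.6% (93.0 to 94.2%). miR-99b-5p took 4.61% and 5.23%, and miR-99a-5p took 1.29% and 1.13%. The miR-10 family was as one-sided at a far lower level, with miR-10b-5p at 92.3% (87.9 to 95.2%) and 93.8% (88.2 to 96.8%). The miR-125 family was shared more evenly, with miR-125b-5p at 60.6% (55.7 to 65.4%) and 55.5% (48.0 to 62.7%). For each of the 7 members, the share of its own family had overlapping intervals in the libraries.

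**Figure D2:**
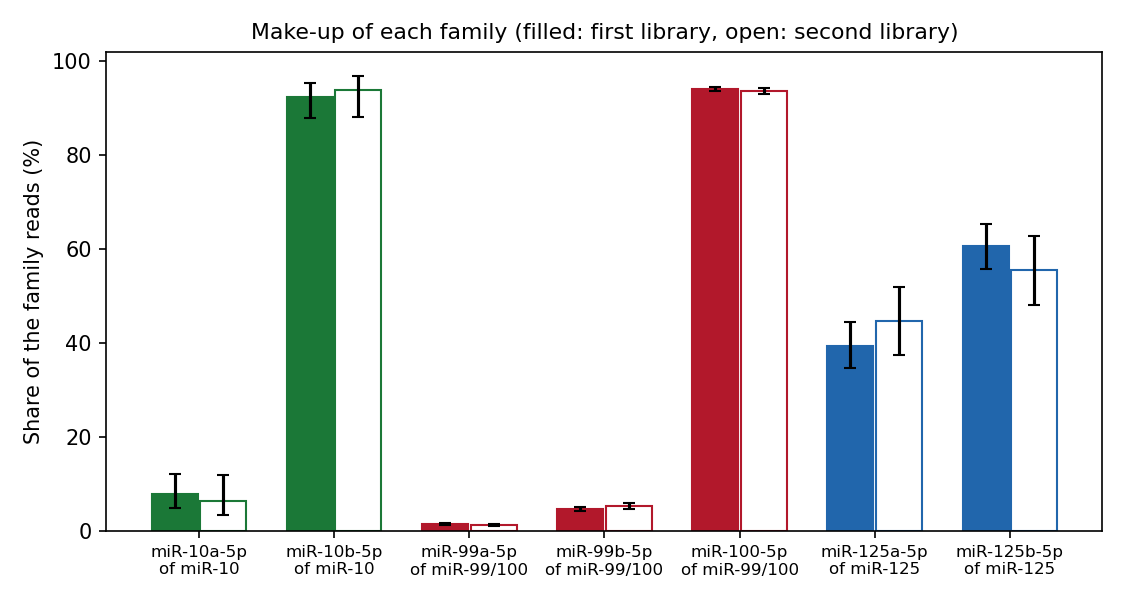
Share of the reads of its own family (percent, linear axis from 0) taken by each member in the first (filled bars) and second (open bars) library, with 95% Wilson intervals. miR-100-5p and miR-10b-5p each take over 92% of their families, while miR-125a-5p and miR-125b-5p lie between 39.4% and 60.6%.

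Reads were therefore very unequal among names that are close in sequence. For every 100 reads of miR-100-5p there were 1.37 and 1.20 reads of miR-99a-5p, and these names are the ones set apart by U16A alone in the sequences above. The corresponding numbers for miR-99b-5p, which has 4 differing bases, were 4.89 and 5.59. How the mapping divided reads between such names is not given in the sources used here, and whether reads of one name were counted on the other was not tested. The same holds for miR-10a-5p and miR-10b-5p, whose likeness was not measured because no sequence was matched to miR-10b-5p. If each read was counted once, the sum of the miR-99/100 family does not depend on how reads were divided within it. Whether that was so is not given either. The sum was 6.83% of the miRNA counts in the first library, 5.10% in the second and a mean of 5.96% ± 1.22 (SD, n = 2). The miR-125 family summed to 0.202% ± 0.0689 (SD, n = 2) and the miR-10 family to 0.124% ± 0.0154 (SD, n = 2).

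All 7 members had a higher CPM in the first library than in the second, by 1.17-fold for miR-10b-5p to 1.79-fold for miR-125b-5p. Among the 144 miRNAs that reached 10 reads in both, 71.5% were also higher in the first. The median log2 difference was 0.48 for the 6 members of this set and 0.30 for all 144. After TMM scaling, which aligns the bulk of the miRNAs, the medians were 0.31 and 0.13, all 6 stayed higher in the first, and 59% of the 144 did so. With DESeq2 size factors the medians were 0.34 and 0.16, all 6 were again higher in the first, and so were 61.1% of the 144. The 95% Wilson intervals lay apart with the first library higher for 3 members, miR-100-5p, miR-125b-5p and miR-99a-5p, against 28.5% of the 144. No member had intervals apart with the second library higher (4.17% of the 144), so 3 of 6 stood apart in either direction, against 32.6%. Intervals narrow with depth, and the 144 include names with far fewer reads than these 6 members. Among the 77 miRNAs with at least 100 summed reads, which include all 6, 41 stood apart, with the same 3 members. At that depth 3 of 6 is no excess. With TMM scaling the intervals of miR-99a-5p overlapped. miR-10b-5p and miR-99b-5p were closest to level, at a log2 of 0.23 and 0.24, or 0.06 and 0.07 with TMM. These comparisons are of the libraries and not of conditions, and the members moved with most of the table.

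**Figure D3:**
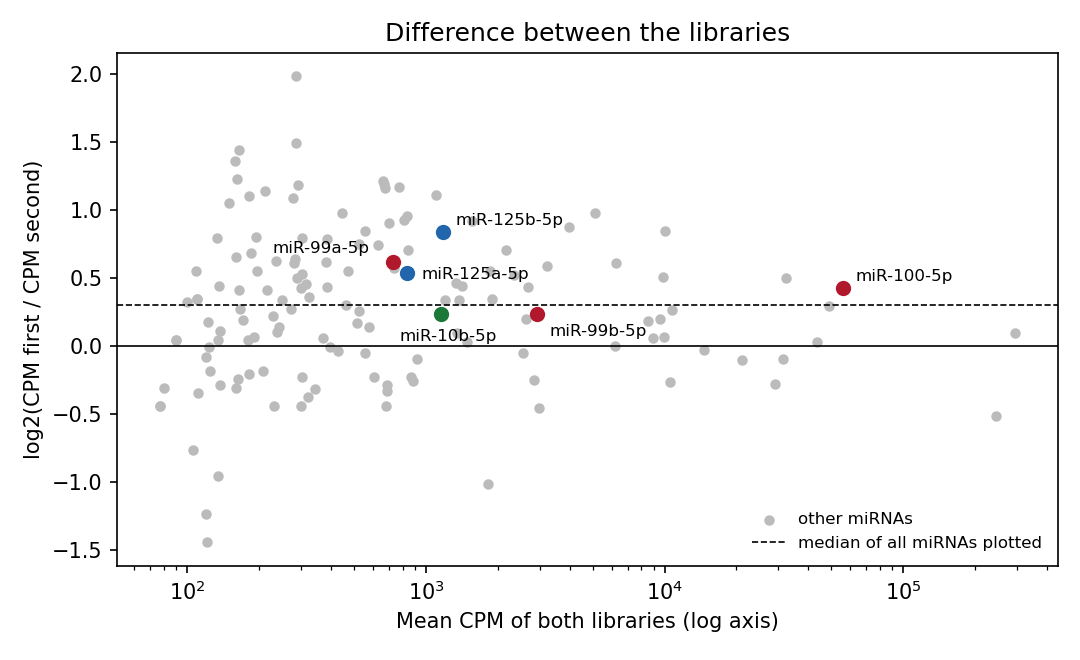
Difference between the libraries, log2(CPM first / CPM second), against mean CPM (log axis) for the 144 miRNAs that reached 10 reads in both; the 6 members in this set are coloured by family and named. All 6 lie above 0, and miR-10b-5p and miR-99b-5p lie below the dashed median of 0.30.

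The 3p arm is the strand from the 3′ side of the hairpin. Which of the arms is kept and which is degraded differs between miRNAs. The level of the 3p arm was set beside that of the 5p arm, since both are cut from the same hairpin. Hairpins of miR-100 and miR-125b-1, the hairpins with the lowest and the highest 3p share where 3p reads were found in both libraries, are shown with the 5p arm and then the 3p arm in capitals. They lie in that order at chr11:122152229-122152308 and chr11:122099757-122099844, minus strand.
MIR100: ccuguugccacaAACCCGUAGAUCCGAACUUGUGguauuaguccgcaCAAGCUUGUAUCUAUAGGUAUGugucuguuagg
MIR125B1: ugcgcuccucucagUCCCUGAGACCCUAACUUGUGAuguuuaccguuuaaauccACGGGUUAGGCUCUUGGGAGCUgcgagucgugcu

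For every member the 5p arm had more reads than the 3p arm in both libraries. Among 82 hairpin names with at least 10 reads on the arms in both libraries, the 5p arm led in 53.7%; this set holds 5 of the member hairpins, without miR-10a for its low count and miR-125b for its split 3p names. miR-100-3p had 11 and 19 reads, so the 3p share of the arm reads was 0.111% (0.0619 to 0.198%) and 0.350% (0.224 to 0.546%). These intervals of the 3p share lay apart. By level, the 5p arm was higher in the first library, with intervals apart. The 3p arm was higher in the second, but its shares of the miRNA counts had overlapping intervals (0.00398 to 0.0128% and 0.0107 to 0.0262%). In log2, with 0.5 reads added to each arm, the 5p arm of miR-100 exceeded the 3p arm by 8.93 ± 1.16 (SD, n = 2), rank 6 of the 82.

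The highest 3p shares were those of miR-125b-1 and miR-125a. The 3p arm of MIR125B1, miR-125b-1-3p, had 38 and 21 reads, 14.0% (10.4 to 18.6%) and 17.9% (12.0 to 25.9%) of the sum with miR-125b-5p. miR-125a-3p had 10 and 5 reads, 6.17% (3.39 to 11%) and 6.10% (2.63 to 13.5%). In absolute level, miR-125b-1-3p at 216 CPM ± 43.1 (SD, n = 2) was above miR-100-3p at 120 CPM ± 68.3 (SD, n = 2), although miR-100-5p exceeded miR-125b-5p by 42.3-fold (37.2 to 48.2) and 56.3-fold (46.0 to 68.9). The ratio of these 3p arms was 3.45 (1.79 to 6.68) and 1.11 (0.600 to 2.04), and the second interval included equal levels.

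The other 3p arms were sparse. miR-99b-3p had 10 reads in each library, 2.02% and 3.21% of its arm reads. miR-10b-3p had 1 and 0 reads, and miR-99a-3p and miR-10a-3p had none, which at this depth allows up to the 3-read limit given above.

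**Figure D4:**
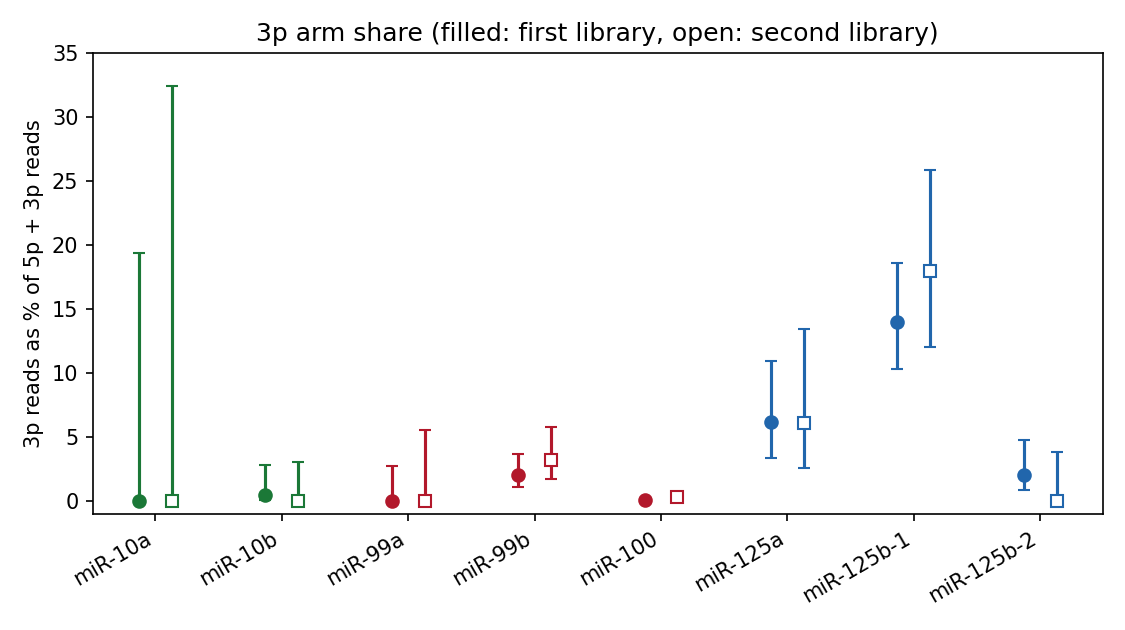
3p reads as percent of 5p plus 3p reads (linear axis) for each hairpin in the first (filled circles) and second (open squares) library, with 95% Wilson intervals. miR-125b-1 is highest at 14.0% and 17.9%, miR-100 is below 1% in both, and the wide bars of miR-10a go with its 16 and 8 reads; both miR-125b hairpins are set against the same summed miR-125b-5p.

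The 5p arm of miR-125b is identical from chromosomes 11 and 21, so its reads do not name their source, but the 3p arms differ. miR-125b-1-3p from chromosome 11 had 38 of 43 such reads in the first library, or 88.4% (75.5 to 94.9%), and 21 of 21 in the second (84.5 to 100%). It was thus 7.60-fold (3.09 to 18.7) above miR-125b-2-3p in the first library. In the second the ratio was 7 with the 0 reads taken as 3, and the interval allowed a ratio down to 5.47. Of the other members in these clusters, miR-100-5p from chromosome 11 had 72.9-fold (61.5 to 86.3) and 83.2-fold (65.2 to 106) the reads of miR-99a-5p from chromosome 21. The 3p share differed widely between hairpins, so a ratio of 3p arms is not a ratio of 5p reads by locus. How the miR-125b-5p reads divide between the chromosomes was not tested.

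Members were compared with the let-7 miRNA of the same cluster. let-7e-5p and let-7c-5p are close in sequence to let-7a-5p, which had 4661 and 3652 reads. Whether reads of let-7a-5p were counted on them was not tested, so their levels, ratios and library differences below carry that limit. On chromosome 19 the hairpins of miR-99b, let-7e and miR-125a lie within 1 kb, with 104 bases between miR-99b and let-7e and 389 between let-7e and miR-125a. let-7e-5p had 93 and 62 reads, a mean of 575 CPM ± 39.2 (SD, n = 2). miR-99b-5p was 5.22-fold (4.18 to 6.51) and 4.87-fold (3.71 to 6.40) above it, and 3.19-fold (2.66 to 3.83) and 3.92-fold (3.06 to 5.03) above miR-125a-5p. miR-125a-5p was 1.63-fold (1.26 to 2.11) and 1.24-fold (0.890 to 1.73) above let-7e-5p, and the second interval included equal levels. Each of these ratios had overlapping intervals in the libraries.

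On chromosome 21, 658 bases separate the hairpins of miR-99a and let-7c, and 50325 bases separate let-7c from MIR125B2. let-7c-5p had 65 and 49 reads, a mean of 427 CPM ± 8.02 (SD, n = 2). miR-99a-5p was 2.09-fold (1.56 to 2.81) above it in the first library, and 1.33-fold (0.917 to 1.92) in the second, where the interval included equal levels.

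On chromosome 11, let-7a-2 lies 5635 bases from miR-100 and 46677 bases from MIR125B1. let-7a-5p, which is also made from hairpins elsewhere, had 4661 and 3652 reads, a mean of 31248 CPM ± 1440 (SD, n = 2). The arm particular to this hairpin, let-7a-2-3p, had no read in either library. miR-100-5p was 2.13-fold (2.05 to 2.20) above let-7a-5p in the first library and 1.48-fold (1.42 to 1.54) in the second, and the Wilson intervals of let-7a-5p lay apart with the second library higher. let-7a-5p, let-7c-5p and let-7e-5p differed between the libraries by a log2 of -0.09, -0.04 and 0.14, below every member, whose range was 0.23 to 0.84. The intervals of let-7c-5p and let-7e-5p overlapped between the libraries, as did those of miR-10b-5p and miR-99b-5p, the lowest members. Other let-7 5p arms lay on both sides, with let-7b-5p (0.07), let-7f-5p (-0.10) and let-7i-5p (0.18) below the range of the members. Within it were let-7d-5p (0.70) and let-7g-5p (0.61).

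**Figure D5:**
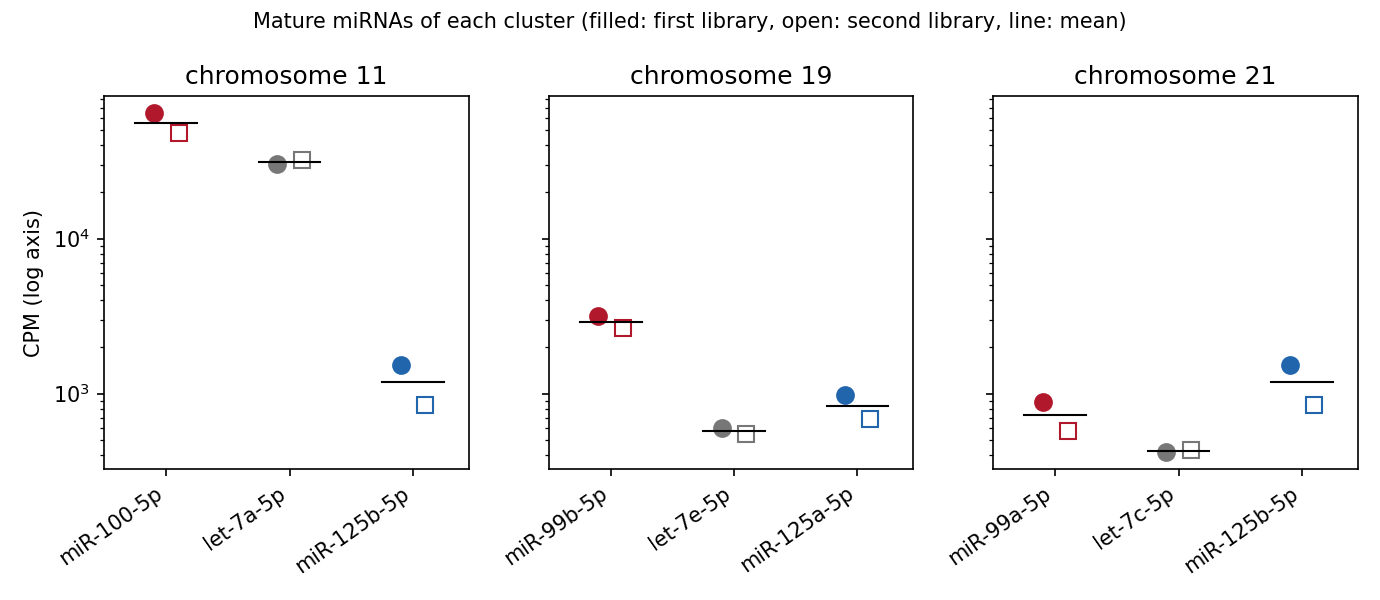
CPM (log axis) of the mature miRNAs in the clusters of chromosomes 11, 19 and 21, first library (filled), second library (open) and mean (line); members are coloured and let-7 is grey. By the counts as listed, the miR-99/100 member is above its let-7 neighbour by mean CPM in all 3 clusters. miR-125b-5p, drawn on chromosomes 11 and 21, is the same summed count.

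The total RNA of PC3 EVs was searched for host genes, neighbours and known targets. Reads counted on genes were 489170 and 475942 in replicates 1 and 2, and 3 reads were 6.13 and 6.30 CPM. Few reads fell on the listed host and neighbouring genes. MIR100HG, its neighbour BLID, MIR99AHG and SPACA6 had 0 reads in both replicates, as did HOXB3 and HOXB4 beside miR-10a and HOXD4 and HOXD8 beside miR-10b. HOXD3 had 0 and 5 reads. SPACA6-AS1, which runs opposite the chromosome 19 hairpins, had 1 and 8 reads. It was the single gene of these 10 with a read in both replicates, against 7.1% of lncRNA genes and 21.9% of protein-coding genes. As 1 of 10 lies between these shares, it is no result about these genes. Since the strand setting of the counting is not given in the sources used here, reads of SPACA6-AS1 cannot be told apart from reads of its opposite strand. The hairpin genes themselves had 0 reads for all 7 that were found in the table, against 0.83% of miRNA genes with a read in both replicates. MIR10A was not analysed here.

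Of 18 genes known as targets of these families, 10 had a read in both replicates, against the 21.9% of all protein-coding genes given above. For miR-99/100 this held for 4 of 6. MTOR had 16 and 18 reads, RPTOR, its partner in the mTOR complex, 10 and 14, the mitotic kinase PLK1 22 and 18, and the chromatin remodeller SMARCA5 34 and 6. IGF1R, the receptor of insulin-like growth factor, had 0 and 20, and FGFR3 had 11 and 0. For miR-125 it held for 4 of 8, with the growth factor receptors ERBB2 at 93 and 67 reads and ERBB3 at 53 and 32, MAP2K7 at 43 and 14 and CBFB at 10 and 20. LIN28A and LIN28B, which block let-7 maturation, had none. For miR-10 it held for 2 of 4, with the transcription factor KLF4 at 30 and 18 and TIAM1 at 2 and 12, while HOXD10 had none. These counts are not corrected for transcript length, they come from separate libraries, and no relation between a miRNA and its targets was tested.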

How the data were processed

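EVs of PC3 cells were isolated on columns and their RNA was made into TruSeq small RNA and TruSeq stranded libraries. The authors made raw counts per mature miRNA, using Cutadapt for trimming and SHRiMP for mapping. For total RNA the deposited counts are raw reads per Ensembl gene from HTSeq on GRCh38, without normalisation. Versions, the strand setting and the handling of reads that match several names are not given in the sources used here. HTSeq rows of reads set aside, 97.5% and 97.8% of the total RNA reads, stayed out of library sizes.

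CPM and shares were computed against all reads counted on miRNAs or genes, with 95% Wilson intervals, and averaged over 2 libraries with their SD. Depth limits precision to 3 reads per library. There was 1 condition per assay and thus no test between groups. Of the methods, only the comparison of Wilson intervals between libraries was tried on simulated data, which held counting error alone. Samples were grouped by their labels. The members and gene lists were chosen with earlier results of these data known. The names given are the members, their 3p arms, cluster partners, names with the same seed, neighbours by rank, the 3 most abundant miRNAs, and listed host, neighbouring and target genes, of which some are not reported here. TMM factors came from edgeR 4.0.16 and size factors from DESeq2 1.42.0 in R 4.3.3; other values from Python 3.11.15 with scipy 1.17.1, and gene positions from GENCODE release 44. Alternatives were other scalings, denominators, read minimums and pseudocounts, and leaving out each library.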

Additional observations from a re-analysis of the deposited data

How the results depend on the processing

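No paired analysis was possible because there is 1 group per assay and the miRNA columns carry no replicate numbers. The denominator mattered most. Without 5 very abundant names, picked from earlier results of these data (miR-1246, miR-3135b, miR-3182, miR-4448 and miR-7641), the mean shares rose to 18.4% for the 7 members, 17.4% for the miR-99/100 family, 0.584% for miR-125 and 0.365% for miR-10, as fewer reads were divided by. TMM scaling, DESeq2 size factors and a minimum of 10 reads moved these shares by less than their SDs. With each library left out in turn, the shares ranged from 5.37 to 7.21% for all members, 5.10 to 6.83% for miR-99/100, 0.153 to 0.250% for miR-125 and 0.113 to 0.135% for miR-10, and with 2 libraries such values cannot leave the SD. Requiring 100 reads in both libraries left 3 of the 7 members, miR-100-5p, miR-99b-5p and miR-10b-5p. Of the 6 neighbour gaps in the order of members, 5 kept their direction in the second library alone and 6 in the first. Intervals lay apart for 47 of 144 miRNAs, for 39 with TMM scaling and for 41 of the 77 with at least 100 summed reads. With a pseudocount of 1 read each 5p to 3p ratio stayed above 1, and those of miR-10a, miR-10b, miR-99a and miR-125a moved by more than their SD. Depth limits most what can be said of miR-10a-5p and of the 3p arms.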
